A study of Mus musculus with 9 samples.

Results

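The transcripts of 10 genes for water and urea transport were examined in the kidney, namely the aquaporins Aqp1, Aqp2, Aqp3, Aqp4, Aqp6, Aqp7 and Aqp11, the vasopressin receptor Avpr2, and the urea transporters Slc14a2 and Slc14a1. All were taken by gene symbol from among the 55385 genes of the deposited table. Bulk poly(A) RNA-seq of kidney tissue covered 3 Control mice (replicates 2, 4 and 5), 3 HN mice (replicates 4, 8 and 12) and 3 PEC mice (replicates 1, 2 and 3), with a library from each animal. According to the labels all were C57BL/6, and the study's methods describe C57BL/6J males aged 8 to 10 weeks at the start. Hyperuricemic nephropathy (HN) was induced in both the HN and the PEC mice over 4 weeks. On alternate days they were given potassium oxonate at 2.4 g/kg together with adenine at 0.16 g/kg. Adenine forms crystals that injure tubules directly, so that this model joins crystal injury with raised uric acid. PEC mice also received the flavonoid pectolinarigenin by mouth each day. The dose was 25 mg/kg, a figure the labels do not carry. Control mice are labelled as having the control disease state without treatment, although the titles of all 9 samples contain the words HN mice. The labels do not say how kidneys were divided, and no batch is given.

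Water leaves the tubule through aquaporins, which are membrane channels. Aqp1 lines the proximal tubule and the descending thin limb, where most of the filtered water is taken back. In the collecting duct, vasopressin binds Avpr2 on principal cells, cAMP rises, and Aqp2 is moved to the luminal membrane and made in larger amounts, while Aqp3 and Aqp4 let the water out on the blood side. Urea held in the medulla by the transporters of Slc14a2 and Slc14a1 adds to the osmotic gradient that draws this water. Loss of Aqp2 or Avpr2 function causes nephrogenic diabetes insipidus, in which urine cannot be concentrated.

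The total count was between 57714111 (PEC 3) and 81069646 (HN 8) per library, with a median of 74397038. Each of the 10 genes had at least 449 counts in every library, so that the spread between mice and not counting error set the precision. Mitochondrial transcripts took 13.3%, 12.9% and 16.3% of the counts in Control 2, 4 and 5, 6.01%, 6.22% and 6.34% in HN 4, 8 and 12, and 13.0%, 10.3% and 13.6% in PEC 1, 2 and 3. Levels within a gene are given as CPM, counts brought to a common library total, after TMM scaling, which sets libraries against each other on the bulk of the genes and not on the total. Nothing beyond the separate mouse numbers shows how independent the mice were, and p-values set differences between groups against the spread between these animals.

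Several libraries stood apart before any group was compared. Sums of FPKM are given below as deposited and are not on the TMM scale, so that they can differ in direction from the fold changes. The FPKM of all genes summed to 446255, 439402 and 487798 in Control 2, 4 and 5, 349547, 348174 and 346594 in HN 4, 8 and 12, and 448442, 439996 and 457069 in PEC 1, 2 and 3. Adipocyte markers (6 genes, Adipoq the most abundant) summed to 126 FPKM in PEC 3, with Adipoq at 61.2 FPKM. In the other libraries the sum was 4.87, 0.63 and 0.33 in Control 2, 4 and 5, 0.73, 0.73 and 12.5 in HN 4, 8 and 12, and 0.86 and 0.68 in PEC 1 and 2, and Adipoq was listed at 0 in Control 4, Control 5, HN 8 and PEC 2. Urothelial markers (6 genes, Psca the most abundant) summed to 90.2 FPKM in PEC 3, against 6.85 and 3.69 in PEC 1 and 2, 26.9, 28.5 and 17.8 in Control 2, 4 and 5, and 8.63, 9.39 and 17.1 in HN 4, 8 and 12. PEC 3 thus carried more transcripts of fat and of the lining of the renal pelvis than any other library. The deposited extraction protocol, the same for all samples, speaks of an adipose type, although every sample is labelled as kidney. The PEC libraries as a group also differed in their relation to transcript length. Across 17414 genes (81.4% of those tested) the deviation of a library from the gene's mean had a Spearman rho with length of -0.30, -0.25 and -0.28 in PEC 1, 2 and 3, of 0.21, 0.20 and 0.19 in HN 4, 8 and 12, and of 0.073, 0.067 and 0.092 in Control 2, 4 and 5. Genes are not independent replicates, and these values are a description.

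In Control kidneys the genes covered a wide range per length. Aqp1 had 329.6 ± 46.9 FPKM (SD, n = 3) and Aqp2 234 ± 99.2 FPKM, and their ranges overlapped. Aqp3 followed with 42.3 ± 9.82 FPKM and Aqp6 with 15.1 ± 1.33 FPKM, each clear of its neighbours. Slc14a2 (7.52 FPKM), Aqp7 (6.36 FPKM), Aqp4 (5.99 FPKM) and Aqp11 (5.15 FPKM) could not be ordered, since each overlapped the next. Avpr2 (2.58 ± 0.289 FPKM) and Slc14a1 (1.51 ± 0.255 FPKM) were lowest. In HN kidneys the top of the order was kept, from Aqp1 (157 ± 9.55 FPKM) through Aqp2 (119.9 ± 29.4 FPKM), Aqp3 (23.1 ± 4.78 FPKM) and Aqp6 (14.2 ± 1.08 FPKM) to Slc14a2 (10.4 ± 1.15 FPKM), but Aqp4 (1.98 ± 0.800 FPKM) and Aqp11 (1.44 ± 0.257 FPKM) were now last, and each overlapped its neighbour, Aqp4 also Slc14a1 (2.01 ± 0.285 FPKM). In PEC kidneys Aqp11 (2.71 ± 0.510 FPKM) and Slc14a1 (2.71 ± 1.63 FPKM) shared the lowest place. The 5 other aquaporins of the mouse were barely measured. Aqp12 had no count in any library, and Aqp5, the most abundant, had 0.09 to 0.56 FPKM. Of the 3 that could be tested, Aqp9, at no more than 0.2 FPKM in any library, was called higher in PEC than in Control (3.18), and no other call was made.

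**Figure D1:**
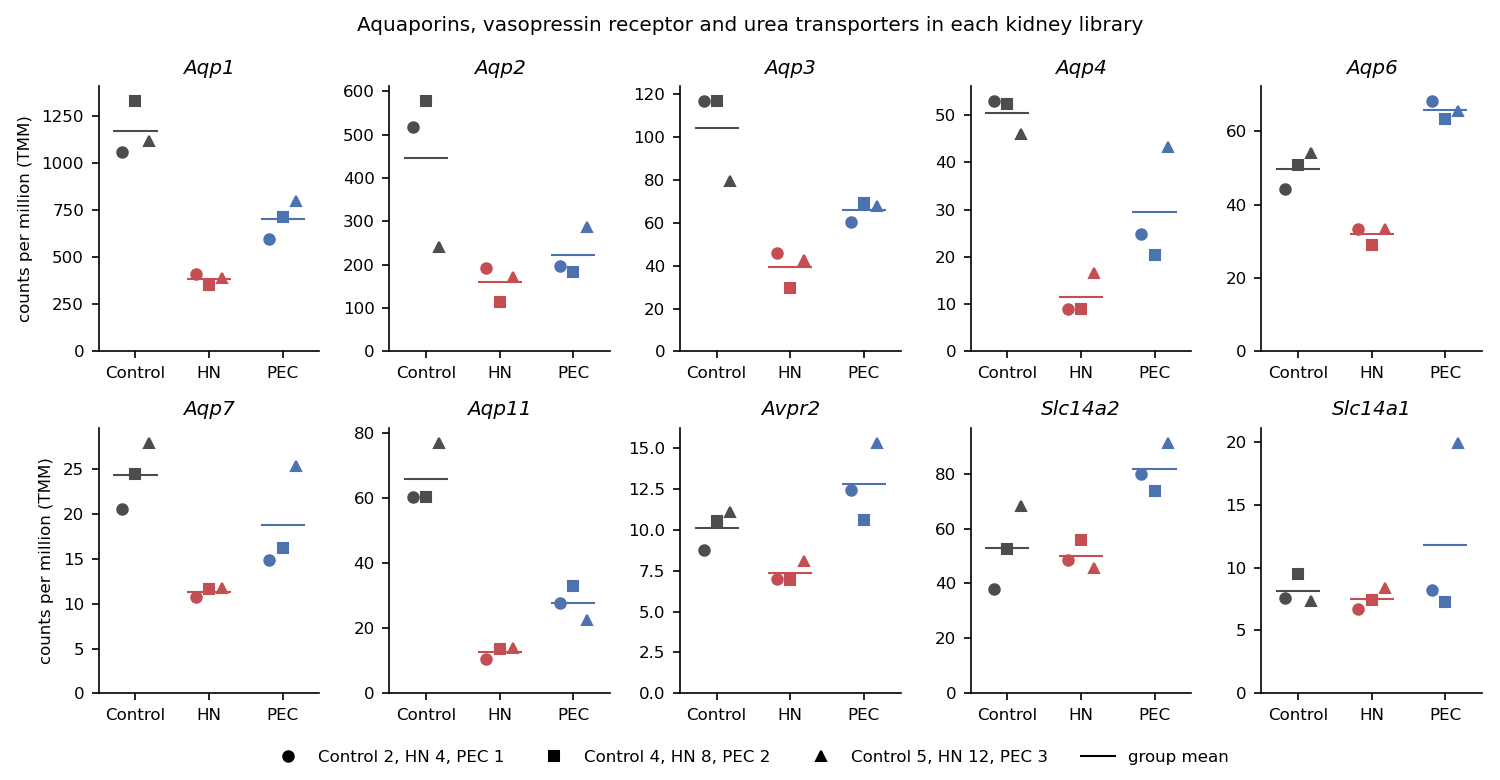
CPM after TMM scaling (vertical axes, from 0) for the 10 genes in each of the 9 libraries, with a point for each mouse and a line at the group mean. Aqp1, Aqp2, Aqp3, Aqp4, Aqp6, Aqp7 and Aqp11 were lower in every HN mouse than in every Control mouse, whereas Slc14a2 and Slc14a1 overlapped. PEC 3 was the highest PEC mouse for Aqp1, Aqp2, Aqp4, Aqp7, Avpr2, Slc14a2 and Slc14a1.

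The comparison of HN with Control asked what the nephropathy does to these genes. Of the 10 genes, all of which were tested, 7 were called lower, namely the 7 aquaporins. To be called, a gene needed a change of 1.5 times or more and, in edgeR's quasi-likelihood test over 21392 genes, an adjusted p (Benjamini-Hochberg) no higher than 0.05. Of all genes tested, 14.7% were called lower and 17.7% higher by this rule. None of the 10 genes was called higher (0 with edgeR, 0 at an unadjusted p, 0 with DESeq2 and 1, Slc14a2, with limma on FPKM of a common sum). The median log2 fold change was -1.25 for the 10 genes and -0.00081 for all genes. The count of 7 became 6 without Control 5, 6 without HN 8 and 6 with an offset for gene length, through Aqp6 in each case. It was 5 with a scaling by total counts, 4 with limma on log2(FPKM + 1) and 3 with limma on FPKM of a common sum.

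The comparison of PEC with HN asked what the treatment does in diseased kidneys, and it shares the HN mice with the comparison above. Here 8 of the 10 genes were called higher, against 13.4% of all genes. The genes not called were Aqp2 and Slc14a1. None was called lower (0 with edgeR, 0 at an unadjusted p, 0 with DESeq2 and 0 with limma on FPKM of a common sum), against 15.3% of all genes. The median log2 fold change was 0.77 for the 10 genes and -0.015 for all genes. With 1 HN mouse left out at a time, or without PEC 3, the count of 8 became 6 or 7, as given for the genes concerned. It was 7 with an offset for gene length, 6 with an offset for GC content, 5 with a scaling by total counts, 4 with limma on log2(FPKM + 1) and 0 with limma on FPKM of a common sum. The comparison of PEC with Control, which shares mice with both others, asked what remained different. It called Aqp1, Aqp2, Aqp3 and Aqp11 lower, against 17.4% of all genes, and Slc14a2 higher, against 18.9%, and the median was -0.52 for the 10 genes and 0.045 for all genes. These counts are small, and without Control 2, Control 4 or PEC 1 they became 2 lower and 0 higher. Without PEC 3 they became 6 lower and 0 higher, and the lower calls became 3 without PEC 2, 3 with the 2 groups alone, 5 with DESeq2 and 1 with a scaling by total counts.

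**Figure D2:**
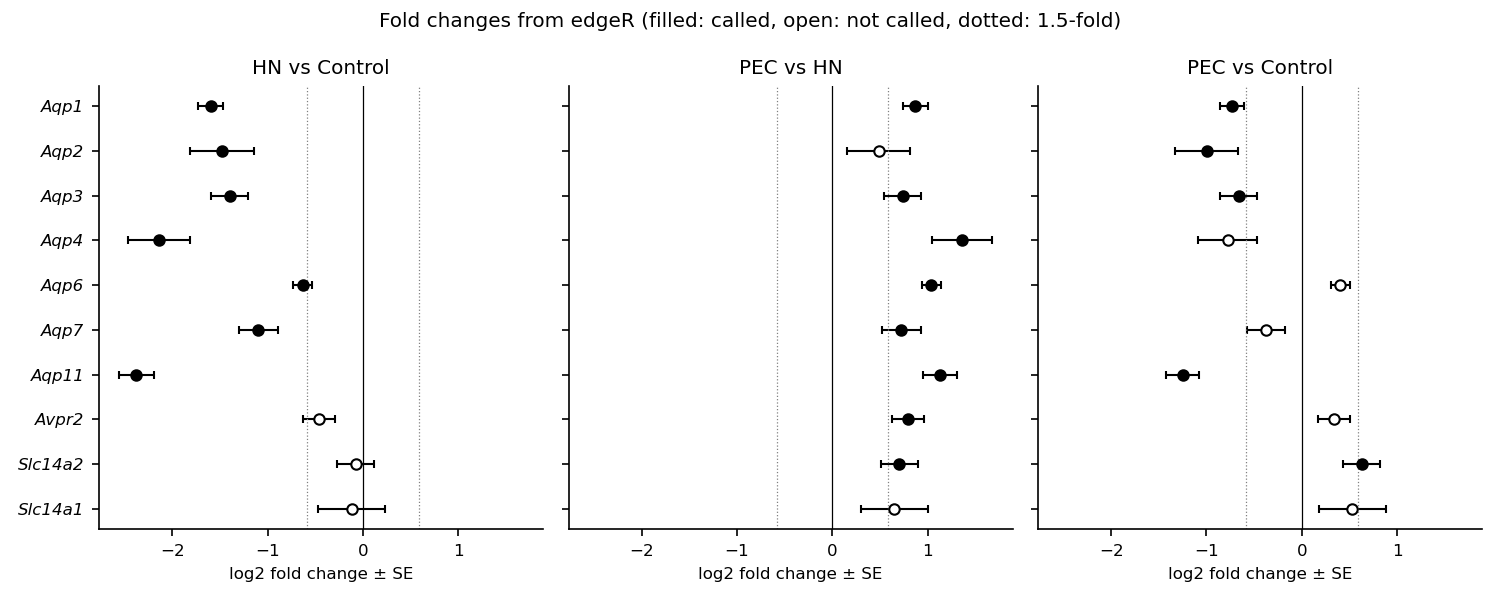
Log2 fold changes (horizontal axes, with standard error) of the 10 genes in the 3 comparisons, from the edgeR fit over 9 libraries. Filled points were called, open points were not, and dotted lines mark 1.5-fold. The fall in HN spanned -0.63 (Aqp6) to -2.38 (Aqp11), and with a scaling by total counts Aqp6 was at -0.07.

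Aqp2, the vasopressin-regulated channel of the luminal membrane of principal cells, had 517, 578 and 241 CPM in Control 2, 4 and 5, then 192, 113 and 172 CPM in HN 4, 8 and 12, and 198, 183 and 288 CPM in PEC 1, 2 and 3. Every HN mouse was below every Control mouse, Control 5 was far below the other Control mice, and PEC 3 lay above Control 5. In HN mice Aqp2 fell by 1.48 ± 0.34 (log2, SE), with an adjusted p of 0.00638 (edgeR, Benjamini-Hochberg). This call was lost in limma on log2(FPKM + 1) (-0.88), log2(FPKM + 0.1) (-0.89) and FPKM of a common sum (-0.49). With PEC the difference from HN was 0.48 ± 0.33 and did not pass the test (adjusted p = 0.279, edgeR). It was 0.28 without HN 8 and without PEC 3, 0.20 with an offset for gene length and 0.80 with an offset for GC content. The sign turned with limma on FPKM of a common sum (-0.091), and the difference was called in none of these. Against Control, PEC mice had a fall of Aqp2 by 1.00 ± 0.33 (adjusted p = 0.0346, edgeR), which was not called without Control 2 (-0.88), Control 4 (-0.77), PEC 1 (-0.92) or PEC 2 (-0.88), nor with a scaling by total counts (-0.65), nor with the 2 groups alone (-0.98), nor in limma (-0.61 on log2(FPKM + 1) and on log2(FPKM + 0.1), -0.58 on FPKM of a common sum).

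Aqp3 passes water and glycerol through the basolateral membrane of the same cells. Its values were 117, 117 and 79.3 CPM in Control 2, 4 and 5, 46.1, 29.8 and 42.8 CPM in HN 4, 8 and 12, and 60.5, 69.1 and 68.0 CPM in PEC 1, 2 and 3. The 3 groups did not overlap, with PEC in between, and Control 5 was again the lowest Control mouse. Aqp3 fell by 1.40 ± 0.19 in HN (adjusted p = 4.01e-04, edgeR) and was higher by 0.74 ± 0.19 with PEC (adjusted p = 0.0146, edgeR). The latter was 0.56 without HN 8, under the fold limit, and 0.53 with an offset for GC content and with an offset for gene length. It was also lost with a scaling by total counts (0.54) and with limma, where the lowest value was 0.17 on FPKM of a common sum. The difference of PEC from Control, -0.66 ± 0.19, was called, but not without Control 2 (-0.58), Control 4 (-0.58) or PEC 1 (-0.61), nor with a scaling by total counts (-0.31), nor in limma (-0.32 on log2(FPKM + 1) and on log2(FPKM + 0.1), -0.29 on FPKM of a common sum).

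Aqp4 is the other basolateral water channel of the collecting duct, found mainly in its inner part. It had 53.0, 52.5 and 46.0 CPM in Control 2, 4 and 5, 8.91, 8.92 and 16.5 CPM in HN 4, 8 and 12, and 24.7, 20.3 and 43.3 CPM in PEC 1, 2 and 3. No group overlapped another, and HN 12 and PEC 3 were the highest of their groups. The fall in HN was by 2.14 ± 0.32 (adjusted p = 6.71e-04, edgeR) and the rise with PEC 1.36 ± 0.32 (adjusted p = 0.00868, edgeR). Without PEC 3 the rise was 1.00 and was still called. The remaining difference of PEC from Control, -0.78 ± 0.31, did not pass (adjusted p = 0.0690, edgeR), whereas it was called without PEC 3 (-1.14), without HN 12 (-0.78) and with DESeq2 (-0.76). The gene shares bases with the annotated non-coding gene Gm50048, and reads of overlapping genes cannot be assigned with certainty.

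Avpr2, the receptor through which vasopressin acts on principal cells, was low, with 8.74, 10.5 and 11.1 CPM in Control 2, 4 and 5, 7.01, 6.94 and 8.11 CPM in HN 4, 8 and 12, and 12.4, 10.6 and 15.3 CPM in PEC 1, 2 and 3. HN was below both other groups without overlap, and PEC overlapped Control. The difference of HN from Control, -0.46 ± 0.17, did not pass (adjusted p = 0.0533, edgeR), and it was 0.10 with a scaling by total counts. Avpr2 rose with PEC by 0.79 ± 0.17 against HN (adjusted p = 0.00548, edgeR), but was not called in limma (0.44 on log2(FPKM + 1), 0.55 on log2(FPKM + 0.1), 0.16 on FPKM of a common sum). Its gene overlaps Arhgap4 and L1cam, which lie on the opposite strand. Since no source used here states that counting used strand, reads of Avpr2 cannot be told apart from those of these neighbours, whose counts were larger. L1cam had 1793, 1831 and 2152 counts in Control, 3646, 4119 and 4483 counts in HN and 4870, 3934 and 1369 counts in PEC. Arhgap4 had 884, 942 and 1003 counts in Control, 1520, 2289 and 1846 counts in HN and 2403, 1652 and 2120 counts in PEC, where Avpr2 had 966, 708 and 923 counts. The part of these neighbours in the values of Avpr2 was not tested.

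The windows around the start sites of Aqp2 and Aqp3 are shown because both genes belong to principal cells and were lower together in HN, and those of Aqp6 and Aqp7 because they are their neighbours in the genome. Aqp2 (ENSMUSG00000023013, chromosome 15, 99579055 to 99584547, plus strand, 4 exons) and Aqp6 (ENSMUSG00000043144, chromosome 15, 99601400 to 99605477, plus strand) are 16852 bases apart, with Aqp5 between them. Aqp7 (ENSMUSG00000028427, chromosome 4, 41033074 to 41048139, minus strand) and Aqp3 (ENSMUSG00000028435, chromosome 4, 41092722 to 41098183, minus strand) are 44582 bases apart, with Gm25637 between them. RefSeq windows of 300 bases (GRCm38.p6), with 250 bases before the start site and 50 after it, were used for 7 of the 10 genes. Windows of Aqp4, Slc14a2 and Slc14a1 were not examined. Capitals mark matches, on either strand, to TGACG (core of the cAMP response element), GATAA (GATA factors), TGGAAA (core of the tonicity element) or TATAA (TATA box). These matches do not overlap in the windows shown, which are written in the direction of transcription. The Aqp2 window is chr15:99578806-99579105 on the plus strand, the Aqp6 window chr15:99600950-99601249 on the plus strand, the Aqp3 window chr4:41098134-41098433 on the minus strand and the Aqp7 window chr4:41048087-41048386 on the minus strand.
Aqp2: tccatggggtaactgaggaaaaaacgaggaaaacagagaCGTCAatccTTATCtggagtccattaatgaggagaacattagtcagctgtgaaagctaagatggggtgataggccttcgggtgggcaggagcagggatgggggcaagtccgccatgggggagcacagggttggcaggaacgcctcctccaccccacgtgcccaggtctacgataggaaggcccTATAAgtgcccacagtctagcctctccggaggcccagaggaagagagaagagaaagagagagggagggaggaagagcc
Aqp6: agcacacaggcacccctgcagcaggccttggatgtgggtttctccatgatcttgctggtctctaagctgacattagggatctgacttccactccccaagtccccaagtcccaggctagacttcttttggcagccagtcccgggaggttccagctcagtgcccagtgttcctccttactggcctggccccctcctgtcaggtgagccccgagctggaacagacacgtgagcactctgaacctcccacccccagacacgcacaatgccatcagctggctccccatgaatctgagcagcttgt
Aqp3: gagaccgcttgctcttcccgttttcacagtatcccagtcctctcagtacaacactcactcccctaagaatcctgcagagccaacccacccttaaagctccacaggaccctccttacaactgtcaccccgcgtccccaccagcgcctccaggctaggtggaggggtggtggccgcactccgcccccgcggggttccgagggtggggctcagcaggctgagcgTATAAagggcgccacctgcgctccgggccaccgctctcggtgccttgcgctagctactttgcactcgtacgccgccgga
Aqp7: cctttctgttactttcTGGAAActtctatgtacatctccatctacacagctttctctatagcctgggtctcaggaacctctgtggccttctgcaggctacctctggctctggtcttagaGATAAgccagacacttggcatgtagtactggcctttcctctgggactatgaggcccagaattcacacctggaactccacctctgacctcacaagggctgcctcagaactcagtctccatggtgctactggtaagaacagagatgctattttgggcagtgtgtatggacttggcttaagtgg
The Aqp2 window holds TGACG on the opposite strand at -211 to -207 from the start site, GATAA on the opposite strand at -202 to -198 and TATAA at -28 to -24. In the Aqp3 window only TATAA was found, at -29 to -25, and the Aqp6 window has no match to any of the 4 motifs. The Aqp6 window ends at 99601249, before the gene start given above (99601400), so that it does not cover that start. The Aqp7 window shown, the first of 2 in the table, holds TGGAAA at -234 to -229 and GATAA at -131 to -127. Of the 32851 windows of the same length, 20.8% hold TGACG, 25.4% GATAA, 21.4% TGGAAA and 24.9% TATAA on either strand. A match is a string of letters, and binding was not tested.

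RNA of bulk tissue cannot show whether a tissue holds fewer cells of a type or whether each cell holds less of a transcript. Each gene was therefore also set against markers of its segment or broad cell type, not of its exact cells. The value was its log2 CPM minus the mean log2 CPM of the markers in the same library, which no scaling between libraries can move. The 6 principal cell markers (Hsd11b2 the most abundant) summed to 95.2, 113 and 99.96 FPKM in Control 2, 4 and 5, 166, 139.7 and 182 FPKM in HN 4, 8 and 12, and 200.1, 185 and 177 FPKM in PEC 1, 2 and 3. In HN, 1 of the 6 was called lower (Fxyd4, -1.01 ± 0.193), against 14.7% of all genes, and the 6 markers had a median log2 fold change of 0.22. Relative to them Aqp2 stood at 3.54, 3.47 and 2.37 in Control 2, 4 and 5, at 1.98, 1.40 and 1.67 in HN 4, 8 and 12, and at 1.35, 1.36 and 2.11 in PEC 1, 2 and 3. Both HN and PEC lay wholly below Control and overlapped each other. The differences were -1.45 for HN against Control and -1.52 for PEC against Control (exact permutation p = 0.1 for each, two-sided, the smallest that 3 against 3 mice allow). PEC and HN differed by -0.07 (exact permutation p = 0.8), less than the SDs of 0.44 and 0.29, and the sign turned without HN 4 (0.075).

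Aqp3 and Aqp4 gave the same picture against the principal cell markers in HN. Aqp3 was lower relative to them by -1.43 in HN and by -1.23 in PEC than in Control (exact permutation p = 0.1 for each), and PEC differed from HN by 0.19 with overlap (exact permutation p = 0.3) and by 0.087 without HN 8. For Aqp4 the differences from Control were -2.23 in HN and -1.44 in PEC (exact permutation p = 0.1 for each). PEC 3 stood at -0.62 and the other PEC mice at -1.64 and -1.81, so that PEC and HN overlapped (difference 0.78, exact permutation p = 0.2, and 0.41 without PEC 3). Avpr2 was lower by -0.48 in HN than in Control without overlap (exact permutation p = 0.1), a smaller difference than those of the channels, and PEC overlapped both groups. With PEC, 2 of the 6 markers were called higher than in HN, against 13.4% of all genes, Fxyd4 by 1.39 ± 0.195 and Kcne1 by 0.72 ± 0.212. The median of the 6 markers was 0.38. In all, 33 relative levels were computed for 11 pairs of a gene and a marker list, of which 17 had the smallest possible p, and these p-values were not adjusted.

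**Figure D3:**
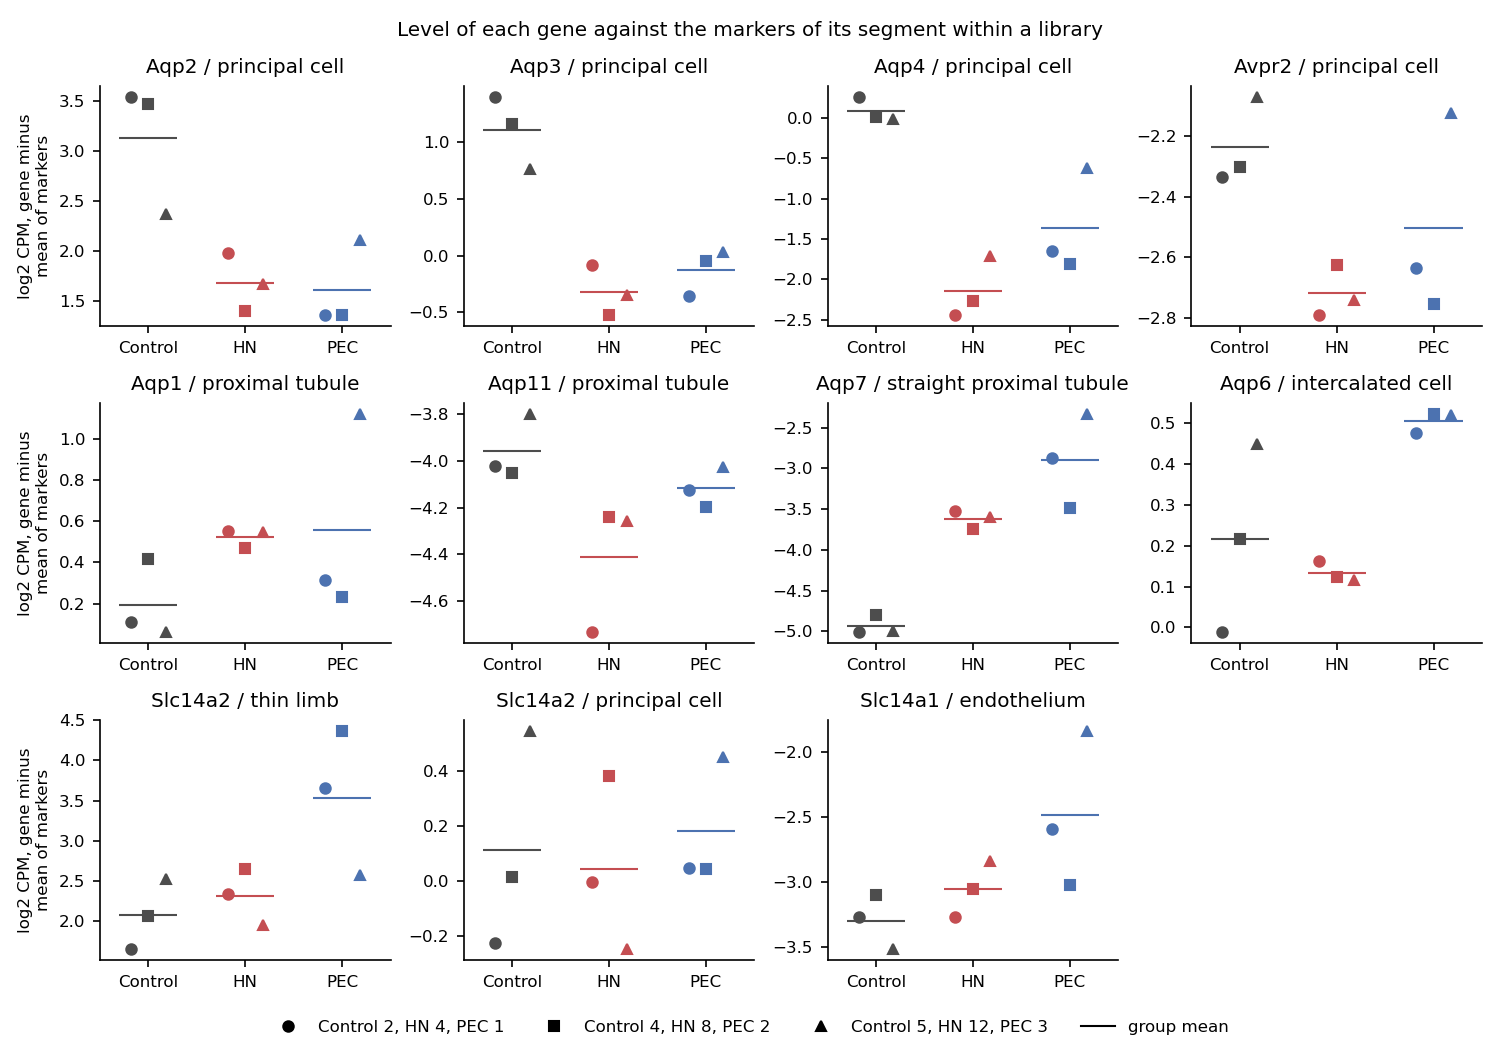
Log2 CPM of each gene minus the mean log2 CPM of its segment's markers (vertical axes) in each library, with a line at the group mean. Relative to principal cell markers, Aqp2, Aqp3 and Aqp4 were lower in all HN and PEC mice than in any Control mouse. Aqp7 was higher relative to the straight proximal tubule in all HN and PEC mice than in any Control mouse.

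Aqp1, the constitutive water channel of the proximal tubule and thin descending limb, had 1060.2, 1330.0 and 1116 CPM in Control 2, 4 and 5, 411, 355 and 392 CPM in HN 4, 8 and 12, and 599, 713 and 799 CPM in PEC 1, 2 and 3. The groups did not overlap, and PEC lay between the others. Aqp1 (ENSMUSG00000004655, chromosome 6, 55336432 to 55348555) fell by 1.60 ± 0.13 in HN (adjusted p = 2.00e-05, edgeR), rose by 0.87 ± 0.13 with PEC against HN (adjusted p = 9.50e-04, edgeR) and remained lower in PEC than in Control, at -0.73 ± 0.13 (adjusted p = 0.00165, edgeR). The last call was lost with a scaling by total counts (-0.38) and in limma (-0.42 on log2(FPKM + 1) and on log2(FPKM + 0.1), -0.39 on FPKM of a common sum). The rise against HN was lost with limma on FPKM of a common sum (0.28).

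Most proximal tubule markers shared the directions of Aqp1. Of the 10 markers, Slc27a2 was the most abundant over all libraries, although Miox had the higher mean in PEC. In HN 9 of the markers were called lower, against 14.7% of all genes, with a median of -1.93. With PEC 9 of the markers were called higher, against 13.4%, with a median of 0.99. Their sum was 2884, 3003 and 2961 FPKM in Control 2, 4 and 5, 994, 972 and 1044 FPKM in HN 4, 8 and 12, and 2254, 2490.2 and 1642 FPKM in PEC 1, 2 and 3. Slc22a6, an organic anion transporter, fell by 2.32 ± 0.226. Miox, an inositol-degrading enzyme, fell by 2.32 ± 0.202 and rose with PEC by 1.94 ± 0.199. Relative to these markers Aqp1 was at 0.11, 0.41 and 0.06 in Control 2, 4 and 5 and at 0.55, 0.47 and 0.55 in HN 4, 8 and 12, so that it was higher relative to them by 0.33 in HN, without overlap (exact permutation p = 0.1). In PEC 1, 2 and 3 it was at 0.31, 0.23 and 1.12, and PEC 3, which had the lowest sum of proximal tubule markers among PEC mice, was the highest. Without PEC 3 the difference of PEC from HN was -0.25 in place of 0.03.

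Aqp11 is an intracellular aquaporin of the proximal tubule, located at the endoplasmic reticulum, and mice without it develop polycystic kidneys. It had 60.4, 60.2 and 76.8 CPM in Control 2, 4 and 5, 10.5, 13.5 and 14.01 CPM in HN 4, 8 and 12, and 27.6, 32.9 and 22.5 CPM in PEC 1, 2 and 3. The groups were fully separate. Its fall in HN by 2.38 ± 0.18 (adjusted p = 1.25e-05, edgeR), to 0.193 of the Control level, was the largest among the 10 genes. With PEC it rose by 1.13 ± 0.17 against HN (adjusted p = 0.00108, edgeR) and was still lower than in Control by -1.25 ± 0.17 (adjusted p = 4.05e-04, edgeR). Relative to the proximal tubule markers Aqp11 was lower by -0.45 in HN (exact permutation p = 0.1), a difference from the mean of the markers only, since Miox (-2.32) and Slc22a6 (-2.32) fell nearly as much as Aqp11 did. This relative level was higher in PEC than in HN by 0.29, also without overlap (exact permutation p = 0.1). HN 4 was the lowest library, at -4.73 against -4.24 and -4.26 in HN 8 and 12, and without it the differences were -0.29 for HN against Control and 0.13 for PEC against HN.

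Aqp7, the glycerol channel of the last, straight part of the proximal tubule, is also the main glycerol channel of fat cells. It had 20.6, 24.5 and 27.9 CPM in Control 2, 4 and 5, 10.7, 11.6 and 11.8 CPM in HN 4, 8 and 12, and 14.8, 16.2 and 25.4 CPM in PEC 1, 2 and 3. HN lay below both other groups, and PEC 3, the library with adipocyte transcripts, reached the Control range. Aqp7 fell by 1.10 ± 0.20 in HN (adjusted p = 0.00215, edgeR). This call was lost with a scaling by total counts (-0.54) and in limma (-0.47 on log2(FPKM + 1), -0.55 on log2(FPKM + 0.1), -0.14 on FPKM of a common sum). Aqp7 rose by 0.72 ± 0.20 with PEC (adjusted p = 0.0199, edgeR), but the value without PEC 3 was 0.47, and the call was also lost without HN 4 (0.68), HN 8 (0.73) or HN 12 (0.74). The rise was not called with a scaling by total counts (0.53) or in limma (in the same order 0.40, 0.46 and 0.09). Without PEC 3, PEC mice were called lower than Control (-0.63), against -0.37 ± 0.20 with all mice. The part of fat in the PEC 3 value was not tested.

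All 3 markers of the straight proximal tubule were called lower in HN, against 14.7% of all genes. The markers had a median of -2.83 and were led by Cyp7b1 at -3.17 ± 0.218 and Slc7a13 at -2.83 ± 0.257. Aqp7 was thus higher relative to them, by 1.31 in HN and by 2.04 in PEC than in Control (exact permutation p = 0.1 for each). With PEC these markers diverged, since Cyp7b1 rose by 0.90 ± 0.203 against HN, Atp11a fell by 1.33 ± 0.258, and Slc7a13 was at 0.42 ± 0.241 and was not called. Their sum was 499.9, 537 and 635 FPKM in Control 2, 4 and 5, 120.0, 151 and 156 FPKM in HN 4, 8 and 12, and 105, 178 and 112 FPKM in PEC 1, 2 and 3.

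Aqp6 is an anion-permeable channel in vesicles of acid-secreting intercalated cells and a neighbour of Aqp2, with which it was not compared by a test. It had 44.2, 50.8 and 54.0 CPM in Control 2, 4 and 5, 33.5, 29.1 and 33.5 CPM in HN 4, 8 and 12, and 68.3, 63.4 and 65.7 CPM in PEC 1, 2 and 3. PEC was above both other groups and HN below both, with no overlap. The fall in HN by 0.63 ± 0.10 (adjusted p = 8.81e-04, edgeR) was just past the fold limit, and it was not called without Control 5 (-0.57), without HN 8 (-0.56), with an offset for gene length (-0.58) or with a scaling by total counts (-0.07). In limma it was lost too, at -0.09 on log2(FPKM + 1) and -0.10 on log2(FPKM + 0.1), and its sign turned on FPKM of a common sum (0.28). The rise with PEC against HN, 1.04 ± 0.10 (adjusted p = 1.10e-04, edgeR), was called with a scaling by total counts too. With limma on FPKM of a common sum it was 0.44, under the fold limit. Against Control PEC mice had a value of 0.41 ± 0.10 (adjusted p = 0.00911, edgeR), under the fold limit. It was called with a scaling by total counts (0.77) and with limma on log2(FPKM + 1) (0.69), log2(FPKM + 0.1) (0.72) and FPKM of a common sum (0.71), whereas the GC offset gave 0.13.

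Intercalated cell markers were called lower in HN for 4 of 7 genes, against 14.7% of all genes, with a median of -0.62, and higher with PEC for 4 of 7, against 13.4%, with a median of 0.60. Slc26a4, the chloride-bicarbonate exchanger pendrin, fell by 1.13 ± 0.128 in HN, and Slc4a9, another anion exchanger of these cells, rose by 1.75 ± 0.145 with PEC. Atp6v1g3 was the most abundant of the 7 markers over all libraries, but not in HN. The sum of the 7 markers was 84.3, 86.0 and 74.5 FPKM in Control 2, 4 and 5, 84.8, 82.3 and 92.5 FPKM in HN 4, 8 and 12, and 123, 113 and 116 FPKM in PEC 1, 2 and 3. Relative to the markers Aqp6 was at -0.01, 0.22 and 0.45 in Control 2, 4 and 5, at 0.16, 0.12 and 0.12 in HN 4, 8 and 12, and at 0.48, 0.52 and 0.52 in PEC 1, 2 and 3. HN and Control overlapped and differed by -0.08 (exact permutation p = 0.7), while PEC was above both, by 0.37 relative to HN and by 0.29 relative to Control (exact permutation p = 0.1 for each). With the median of the markers in place of their mean the latter was 0.12, and without Control 2 it was 0.17.

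Neither urea transporter gene was called between HN and Control, and no test compared them with the aquaporins. Slc14a2 (ENSMUSG00000024552), which encodes the vasopressin-regulated transporters of the inner medullary collecting duct and the one of the thin descending limb, had 37.9, 52.6 and 68.1 CPM in Control 2, 4 and 5, 48.7, 55.9 and 45.7 CPM in HN 4, 8 and 12, and 80.0, 73.8 and 91.1 CPM in PEC 1, 2 and 3. All PEC mice were above all others, and HN lay within the wide Control range. HN differed from Control by -0.08 ± 0.19 (adjusted p = 0.793, edgeR), and the sign changed with a scaling by total counts (0.49) and without Control 5 (0.15). With limma on FPKM of a common sum it was 0.80, and Slc14a2 was the gene called higher there. Slc14a2 rose with PEC by 0.70 ± 0.19 against HN (adjusted p = 0.0184, edgeR) and was higher than in Control by 0.63 ± 0.19 (adjusted p = 0.0253, edgeR). The first call was lost without HN 4 (0.68) or HN 12 (0.64), with a scaling by total counts (0.51) and with an offset for GC content (0.51). It was also lost in limma (0.45 on log2(FPKM + 1), 0.48 on log2(FPKM + 0.1), 0.11 on FPKM of a common sum). The call against Control was lost without Control 2 (0.43), Control 4 (0.62), PEC 1 (0.64) or PEC 3 (0.56) and with the GC offset (0.40). Gene counts join the transcripts of all its promoters, and the gene also overlaps Gm6133, Gm26430 and 4931439C15Rik.

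Relative to the principal cell markers Slc14a2 differed little between groups, by -0.07 for HN against Control (exact permutation p = 0.7) and by 0.14 for PEC against HN (exact permutation p = 0.5), each below its SDs. Relative to the 5 thin limb markers (Cryab the most abundant) it was higher by 1.23 in PEC than in HN with overlap (exact permutation p = 0.2). PEC was above Control by 1.46 without overlap (exact permutation p = 0.1). The first of these differences was 0.81 without PEC 2 and 1.71 without PEC 3. Sptssb, named after its values were seen, had 0.12, 0 and 5.5 FPKM in PEC 1, 2 and 3 and thus weighed on the marker mean. These markers moved unevenly, with a median of 0.63 in HN and of -0.66 with PEC. Cryab, a small heat shock protein of the medulla, went against both medians, lower by -0.83 ± 0.208 in HN and higher by 0.77 ± 0.208 with PEC. Not called in HN were Epha7 (0.79), Bst1 (0.68), Fst (0.63) and Sptssb (-2.51). Epha7 and Fst fell with PEC by 1.07 ± 0.340 and by 0.92 ± 0.302. The sum of the 5 markers was 90.1, 77.9 and 49.2 FPKM in Control 2, 4 and 5, 71.7, 62.7 and 63.7 FPKM in HN 4, 8 and 12, and 89.5, 75.8 and 92.7 FPKM in PEC 1, 2 and 3.

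Slc14a1 (ENSMUSG00000059336) encodes the urea transporter of the descending vasa recta and of red blood cells, which is also known from urothelium. It had 7.56, 9.50 and 7.36 CPM in Control 2, 4 and 5, 6.69, 7.38 and 8.40 CPM in HN 4, 8 and 12, and 8.19, 7.23 and 19.9 CPM in PEC 1, 2 and 3. In CPM only PEC 3, the library with the highest urothelial sum, stood out, and all groups overlapped. The differences were -0.12 ± 0.35 for HN against Control, 0.65 ± 0.35 for PEC against HN (adjusted p = 0.175, edgeR) and 0.53 ± 0.35 for PEC against Control, none of which passed. Without PEC 3 the difference of PEC from HN was 0.07 and that from Control was -0.06. Of the 7 endothelial markers (Plvap the most abundant), 2 were called lower in HN, against 14.7% of all genes, Kdr by -1.002 ± 0.232 and Flt1 by -0.82 ± 0.128. With PEC 1 was called higher, Emcn by 0.59 ± 0.174, against 13.4% of all genes. The medians of these markers were -0.30 in HN and -0.20 with PEC. Relative to them Slc14a1 was higher in PEC than in Control by 0.81 without overlap (exact permutation p = 0.1), and by 0.49 without PEC 3. PEC and HN overlapped (0.57, exact permutation p = 0.2, and 0.25 without PEC 3), as did HN and Control (0.24, exact permutation p = 0.3). The sum of the markers was 105, 118 and 106 FPKM in Control 2, 4 and 5, 133, 133 and 134 FPKM in HN 4, 8 and 12, and 92.6, 104 and 126 FPKM in PEC 1, 2 and 3. Red blood cell transcripts (7 genes, Hba-a1 the most abundant over all libraries, although below Hbb-bs in PEC) summed to 339.6, 328 and 511 FPKM in Control 2, 4 and 5, to 90.8, 72.9 and 54.5 FPKM in HN 4, 8 and 12, and to 315, 387 and 327 FPKM in PEC 1, 2 and 3. Of the 6 red cell genes tested, 5 were called lower in HN, against 14.7% of all genes, and 1, Epb42, was called higher, against 17.7%. The median in HN was -2.95. With PEC 5 were called higher, against 13.4%, with a median of 2.05. The part of red cells and urothelium in the values of Slc14a1 was not tested. Slc14a1 and Slc14a2 are neighbours on chromosome 18, with 22721 bases and no other annotated gene between them.

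**Figure D4:**
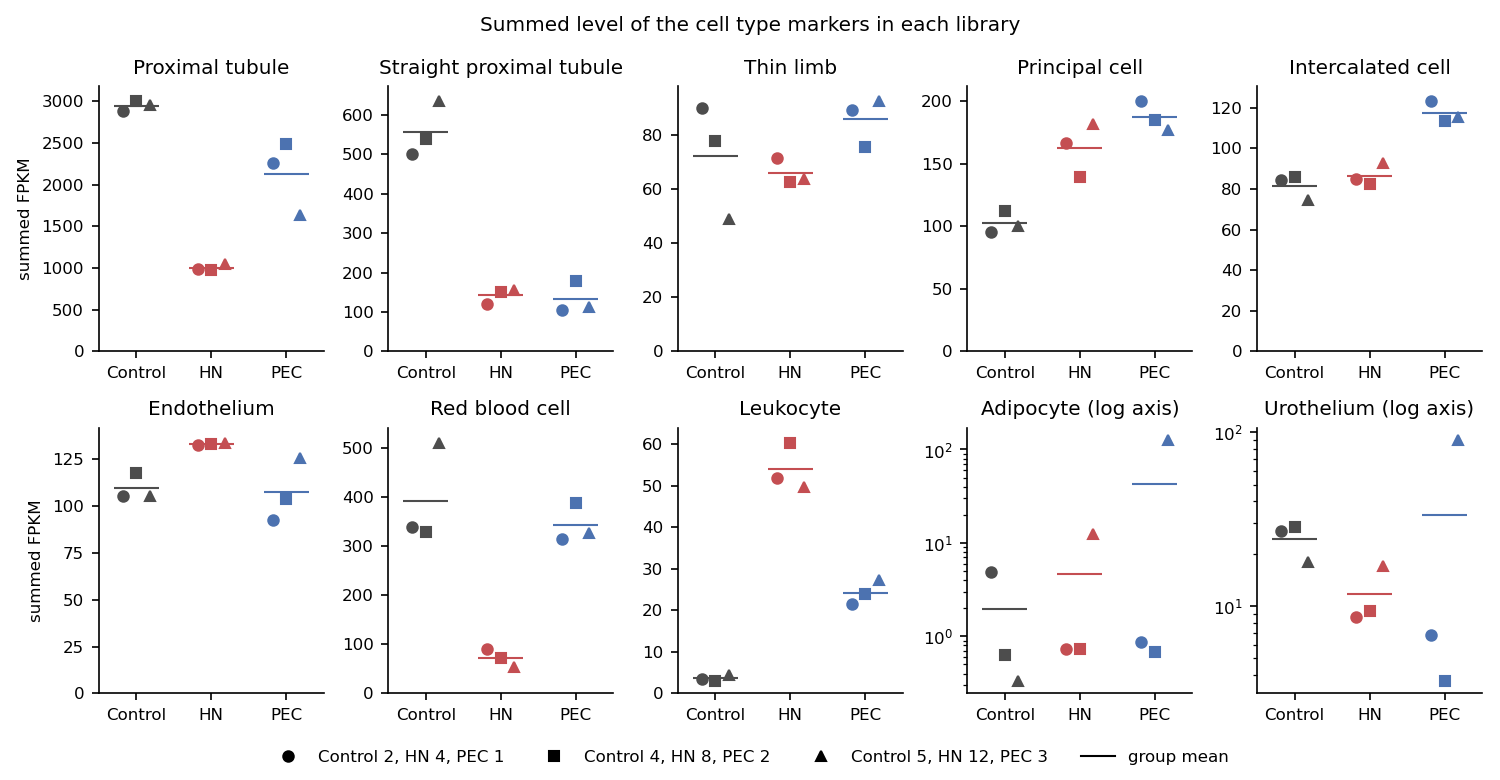
Summed FPKM of 10 marker lists (vertical axes, from 0 except the log axes of adipocyte and urothelium) in each library, with a line at the group mean. Sums are not TMM scaled. The sum of proximal tubule markers was lower in every HN library than in every Control library, and PEC 3 stood far above the other libraries in adipocyte (126 FPKM) and urothelial (90.2 FPKM) markers.

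The genes most like Aqp2 over the 9 libraries, by the root mean square difference of log2 CPM after each gene was centred on its mean, were Esrrb (0.210), Asb11 (0.275), Coq8a (0.279), Rrh (0.286) and Cytl1 (0.299). Asb11, Rrh and Cytl1 were low, with 2.39, 0.69 and 0.89 CPM in Control, 0.79, 0.26 and 0.34 CPM in HN, and 1.48, 0.45 and 0.51 CPM in PEC. Esrrb, an orphan nuclear receptor, had 45.1 CPM in Control, 18.3 CPM in HN and 23.0 CPM in PEC, with log2 differences of -1.30 for HN against Control and 0.33 for PEC against HN. Those most like Aqp1 were Kyat3 (0.112), Slc22a4 (0.117), Mettl7a2 (0.126), Slc6a4 (0.139) and Acss2 (0.146). Slc22a4, a carnitine and ergothioneine transporter of the proximal tubule, had 43.9 CPM in Control, 14.8 CPM in HN and 26.6 CPM in PEC. Among the 10 genes themselves, the closest pair by the same measure was Aqp6 and Avpr2 (0.170), followed by Aqp1 and Aqp3 (0.210), Avpr2 and Slc14a2 (0.254) and Aqp2 and Aqp3 (0.272). Aqp11 and Slc14a1 were the farthest apart (1.09).

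A list of other genes of the vasopressin pathway was not compared with the aquaporins by a test. Of its 17 receptors and cAMP signalling genes, 16 were tested. In HN, 4 of them were called higher and the other 12 were not called, with a median of 0.02 against -0.00081 for all genes, of which 17.7% were called higher. Among the genes not called were Adcy9 at -0.58 and Prkar2a at -0.48, both under the fold limit and given here after their values were seen. Oxtr, the oxytocin receptor, which also binds vasopressin, rose by 2.37 ± 0.495, from at most 0.11 FPKM in Control to 0.48 to 0.50 FPKM in HN, and Adcy3, an adenylyl cyclase, rose by 2.04 ± 0.447. With PEC, Gnas, which encodes the stimulatory G protein coupled to Avpr2, rose by 0.81 ± 0.0876 against HN. In the same comparison 4 genes fell, against 15.3% of all genes, among them Pde4b, a cAMP-degrading phosphodiesterase, by 1.66 ± 0.1604 and Adcy9 by 1.47 ± 0.1005, and the median was -0.44 against -0.015 for all genes. Prkar1a, a regulatory subunit of protein kinase A, was the most abundant at 52.5 to 90.2 FPKM. Avpr1b had no count in any library. Whether the relation of the PEC libraries to transcript length had a part in these values was not tested.

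Among 8 transcription factors of the collecting duct, 3 were called higher in HN and 1 lower, against 17.7% and 14.7% of all genes, with a median of 0.15 against -0.00081 for all genes. Elf3 rose by 1.31 ± 0.157 and Grhl2 by 0.77 ± 0.110, both epithelial factors, while Elf5 fell by 0.83 ± 0.287. Nfat5, the factor that drives the response to high tonicity, rose by 0.59 ± 0.198 in HN, just past the fold limit (adjusted p = 0.0395, edgeR). It fell by 2.04 ± 0.206 with PEC against HN. Its values were 3.30, 4.71 and 4.84 FPKM in Control 2, 4 and 5, 9.05, 9.51 and 9.50 FPKM in HN 4, 8 and 12, and 1.91, 1.47 and 2.48 FPKM in PEC 1, 2 and 3. In FPKM, PEC mice were thus lowest and HN mice highest, with no overlap. The part of the relation of the PEC libraries to transcript length in these values was not tested. With PEC, Elf5 rose by 1.19 ± 0.288 against HN, and the median was 0.19.

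Of 7 genes that respond to medullary tonicity, 4 were called lower in HN, against 14.7% of all genes, and 1 higher, against 17.7%, with a median of -0.90 against -0.00081 for all genes. Slc6a12, the betaine transporter, fell by 2.46 ± 0.494 and Akr1b3, the aldose reductase that makes sorbitol, by 1.34 ± 0.474. Gdpd5 rose by 1.27 ± 0.253. The list was not divided by the direction in which its genes respond to tonicity. Akr1b3 had 21.3, 23.1 and 8.19 FPKM in Control 2, 4 and 5, 9.94, 9.94 and 9.77 FPKM in HN 4, 8 and 12, and 8.67, 8.70 and 25.95 FPKM in PEC 1, 2 and 3. Control 5 was low here, as it was for Aqp2 and Aqp3, and PEC 3 was high. With PEC, Hspa1b fell by 1.69 ± 0.520 and Hspa4l by 1.08 ± 0.168, and the median was -0.11. Hspa1b had 122, 26.6 and 34.35 FPKM in HN 4, 8 and 12 and 15.6, 13.8 and 20.3 FPKM in PEC 1, 2 and 3, so that HN 4 carried much of its fall. Slc6a6, the taurine transporter, was the most abundant over all libraries at 38.4 to 61.2 FPKM and was not called in either comparison. In HN 4 Hspa1b was above it.

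Prostaglandin E2 counters vasopressin in the collecting duct. Of 7 genes for its synthesis, receptors and breakdown, 1 rose and 1 fell in HN, which is near the shares of all genes (17.7% higher and 14.7% lower), with a median of 0.37. Ptger4, a receptor coupled to cAMP production, rose by 2.17 ± 0.158, and Ptger3, coupled to cAMP inhibition, fell by 1.13 ± 0.157. Ptger3 was the most abundant over all libraries and in Control, but not in HN or PEC. With PEC, Ptger1 rose by 0.87 ± 0.161, while Ptger4 fell by 1.07 ± 0.152 and Hpgd, which degrades prostaglandins, by 0.78 ± 0.110, with a median of 0.07. The thick ascending limb, whose salt transport builds the medullary gradient, had 5 of 10 genes called lower in HN, against 14.7% of all genes, with a median of -0.67. Slc12a1, the furosemide-sensitive cotransporter, fell by 1.40 ± 0.151, while Umod, the most abundant, was at 0.07 ± 0.0960 and was not called. With PEC 4 rose, against 13.4% of all genes, and 1 fell, against 15.3%, with a median of 0.38. Bsnd rose by 0.95 ± 0.176, and Casr, the calcium-sensing receptor, fell by 1.44 ± 0.140. Slc12a1 was at -0.08 ± 0.148 with PEC against HN and was not called.

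The remaining lists describe the state of the tissue. All 5 leukocyte markers were called higher in HN, against 17.7% of all genes. The markers had a median of 2.72, and their sum was 3.38, 3.07 and 4.40 FPKM in Control 2, 4 and 5, 52.0, 60.4 and 49.8 FPKM in HN 4, 8 and 12, and 21.5, 24.1 and 27.3 FPKM in PEC 1, 2 and 3. With PEC, 2 of the 5 were called lower than in HN, against 15.3% of all genes, with a median of -0.99. They were Adgre1, which fell by 2.07 ± 0.231, and Ptprc, by 1.79 ± 0.366. Cd68, the most abundant over all libraries, was at -0.19 ± 0.252 and was not called, nor were Cd3e and Cd79a. Both markers of injured tubule, Havcr1 and Lcn2, rose in HN, by 7.58 ± 0.331 and by 6.28 ± 0.550, and neither was called between PEC and HN. Their sum was 2.91, 2.85 and 1.63 FPKM in Control 2, 4 and 5, 451, 465 and 469.97 FPKM in HN 4, 8 and 12, and 283, 304 and 338 FPKM in PEC 1, 2 and 3. Urothelial genes were not called, with medians of -0.91 in HN and 1.59 with PEC, but the sums in PEC 1 and 2 lay below those of every HN library and only PEC 3 was above them. Of the 5 adipocyte genes tested only Plin4 was called, with a value of 2.91 for PEC against HN, where PEC 1, 2 and 3 had 0.64, 0.52 and 7.86 FPKM. Alb, the liver gene of the list for other organs, was lower in HN by -2.31 and higher with PEC by 3.09, at no more than 5.41 FPKM, and Ckm of muscle was at no more than 0.08 FPKM.

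**Figure D5:**
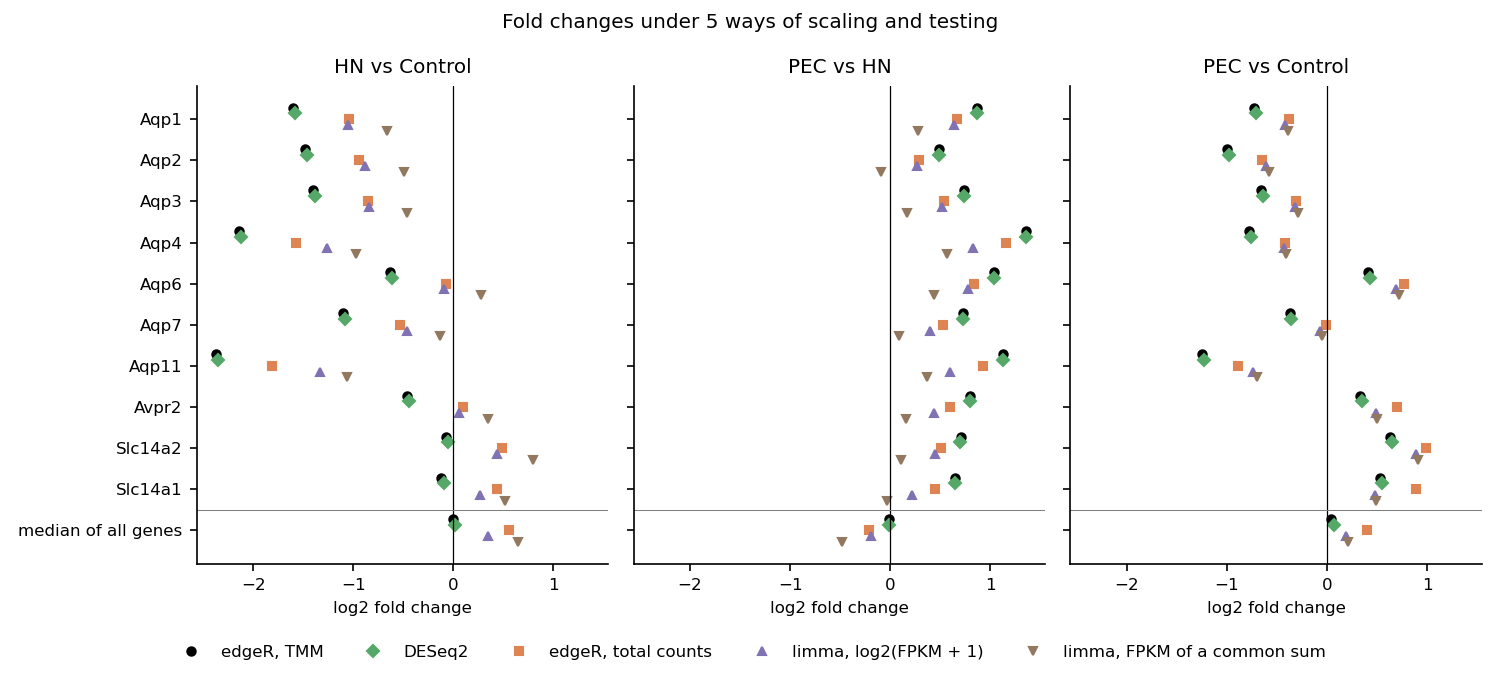
Log2 fold changes (horizontal axes) of the 10 genes, and the median of all genes, under 5 combinations of scaling and test. In HN against Control the median of all genes moved from -0.00081 (edgeR with TMM) to 0.56 with a scaling by total counts, and Aqp6, Avpr2, Slc14a2 and Slc14a1 approached or crossed 0.

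Several directions above depended on how libraries were scaled. With a scaling by total counts alone the median of all genes was 0.56 in HN against Control, -0.21 in PEC against HN and 0.40 in PEC against Control, in place of -0.00081, -0.015 and 0.045 with TMM. The aquaporins called in HN kept their sign with that scaling, although Aqp6 was at -0.07, while Avpr2 (0.10), Slc14a2 (0.49) and Slc14a1 (0.44) changed theirs. Measured against the median of all genes in the same analysis, Aqp6 was lower in HN by between -0.63 and -0.37, Avpr2 by between -0.46 and -0.29, and Aqp11 by between -2.38 and -1.68 over 5 analyses (edgeR with TMM or total counts, DESeq2, limma on FPKM and on FPKM of a common sum). On the same footing the values of PEC against HN were between 0.39 and 0.50 for Aqp2, between 0.92 and 1.05 for Aqp6 and between 0.59 and 0.72 for Slc14a2. With the offset for gene length they were 0.21 for Aqp2, 0.91 for Aqp6 and 0.84 for Slc14a2, and with that for GC content 0.83 for Aqp2, 0.89 for Aqp6 and 0.53 for Slc14a2. The shares of calls that were higher moved with the scaling too, as 54.5% of the calls in HN against Control were higher with TMM and 85.7% with total counts.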

How the data were processed

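Gene counts and FPKM deposited by the authors for 9 libraries of mouse kidney tissue were used as they stood, and all 55385 genes of the table were read. The submitters' processing notes name Bowtie 0.12.2 and the builds mm8 and mm9, while the deposited gene coordinates follow GRCm38. Neither the counting program nor the use of strand is stated. Depth was 57714111 to 81069646 counts, and every member had at least 449 counts per library. Counts were scaled by TMM, genes with enough counts were kept by filterByExpr, and a single edgeR 4.0.16 quasi-likelihood fit over the 3 groups gave 3 comparisons with Benjamini-Hochberg adjustment over 21392 genes (R 4.3.3). A call needed an adjusted p of at most 0.05 and a fold change of at least 1.5. Each comparison was also made with DESeq2 1.42.0, total counts alone, limma 3.58.1 on log2(FPKM + 1), log2(FPKM + 0.1) and FPKM of a common sum, no filter, a mean FPKM of at least 0.5, the 2 groups alone, an offset for gene length, other call rules and each library left out. An offset for GC content was added after the data had been seen. The 10 genes were also set against markers of their segments, with exact permutation tests. The lists, beside the members, were other aquaporins, vasopressin and cAMP signalling, collecting duct transcription factors, tonicity response, prostaglandins, thick ascending limb, and markers of proximal tubule, straight proximal tubule, thin limb, principal cell, intercalated cell, endothelium, red blood cell, adipocyte, urothelium, leukocyte, injured tubule and other organs. Members and lists were chosen with earlier results of these data known. Besides members, the text names the most abundant gene of a list, taken over all libraries. It also names up to 2 rises and 2 falls per list in HN against Control and PEC against HN. Some genes that this rule selects are not reported here. Other names, such as Nfat5 in HN, were added after their values were seen. Python 3.11.15, pandas 2.3.3 and matplotlib 3.10.9 served for tables and plots.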

Additional observations from a re-analysis of the deposited data

How the results depend on the processing

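Of 570 fold changes of the 10 genes under an alternative, 474 kept their direction and their side of the threshold, 68 were weaker, 10 stronger and 18 reversed. The 7 lower calls in HN against Control became 5 with total counts, 4 with limma on log2(FPKM + 1), 4 on log2(FPKM + 0.1) and 3 with FPKM of a common sum, where 1 gene, Slc14a2, was called higher, 6 with the length offset and 6 at a fold of at least 2, and they were 6 to 7 with a library left out. The 8 higher calls in PEC against HN became 5 with total counts, 4 and 4 with limma on log2(FPKM + 1) and log2(FPKM + 0.1), 0 with FPKM of a common sum, 7 with the length offset, 6 with the GC offset and 3 at a fold of at least 2, and they were 6 to 8 with a library left out. In PEC against Control the 1 higher call became 3 with total counts, 2 and 3 with limma on log2(FPKM + 1) and log2(FPKM + 0.1), 2 with a common sum, 0 with the GC offset, 2 with no fold limit and 0 at a fold of at least 2, and it was 0 to 1 with a library left out. The 4 lower calls became 5 with DESeq2 and 5 at an unadjusted p, 3 with the 2 groups alone, 1 with total counts, 1 and 1 with limma, 1 with a common sum and 1 at a fold of at least 2, and they were 2 to 6 with a library left out.

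Signs turned with a scaling by total counts, with limma, which also changed the measure and the test, and with some libraries left out. In HN against Control, Aqp6 was 0.28 with FPKM of a common sum. Avpr2 was 0.10 with total counts, 0.057 and 0.076 with limma on log2(FPKM + 1) and log2(FPKM + 0.1), and 0.35 with a common sum. In the same order Slc14a2 was 0.49, 0.44, 0.49 and 0.80, and Slc14a1 was 0.44, 0.26, 0.39 and 0.52. With a library left out Slc14a2 ranged from -0.26 to 0.15 and Slc14a1 from -0.21 to 0.0089. In PEC against HN with a common sum Aqp2 was -0.091 and Slc14a1 -0.033. Slc14a1 ranged from -0.057 to 0.78 in PEC against Control with a library left out. Shares of higher calls with TMM, total counts, limma on log2(FPKM + 1) and FPKM of a common sum were 54.5%, 85.7%, 81.9% and 93.7% in HN against Control, 46.8%, 29.6%, 28.6% and 10.9% in PEC against HN, and 52.1%, 76.6%, 70.7% and 72.4% in PEC against Control. The cause was not tested.

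Of 231 relative levels under an alternative, 212 stayed the same, 6 moved and 13 reversed. With the median of the markers, Aqp2 was 0.11 and Aqp1 -0.10 in PEC against HN, and Slc14a2 relative to thin limb was -0.67 in HN against Control. With a library left out, Aqp2 ranged from -0.33 to 0.075 and Aqp1 from -0.25 to 0.19 in PEC against HN, and Aqp6 from -0.20 to 0.032 in HN against Control. Slc14a2 relative to principal cells ranged from -0.236 to 0.15 in HN against Control, from -0.00877 to 0.31 in PEC against HN and from -0.10 to 0.29 in PEC against Control. No paired analysis was made, because each library came from a separate mouse and the labels give no pairing of mice between groups.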

Other observations

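The first principal component of all genes tested held 40.5% of the variance and separated Control (-120.3 to -113 in score) from HN (60.3 to 66.6) and PEC (46.7 to 65.8). The second held 27.1% and placed HN at -85.7 to -74.6, Control at -7.20 to -0.21 and PEC at 79.8 to 90.9. The rho of library deviations with GC content across 21358 genes was -0.07, -0.09 and -0.18 in Control 2, 4 and 5, -0.06 in each HN library, and 0.17, 0.16 and 0.15 in PEC 1, 2 and 3.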
